A study of Mus musculus with 4 samples.

Results

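The interleukin and interleukin receptor genes were taken as all RefSeq protein-coding mouse genes whose symbol is Il followed by digits and lower-case letters, with 1 gene left out by the rule. This gave 82 of the 21887 protein-coding genes on the chromosomes. By textbook role 40 encode receptors or receptor-like proteins, and 38 encode cytokines, antagonists or a binding protein, called ligands below. The other 4 (Il16, Il34, Il4i1 and Il4i1b) were kept outside both classes, although Il16 and Il34 encode cytokines too. Their histone acetylation was read from H3K27ac (acetylation of lysine 27 of histone H3, a mark of active promoters and enhancers) profiled by fanChIP, a native chromatin immunoprecipitation, and sequencing. All libraries came from CD45.2-positive bone marrow cells of C57BL/6 mice. The control group is labelled with the genotype cKit(+) and the BN1 group with cKit(+) BRD9-NUTM1, a leukaemia fusion of the chromatin remodelling subunit BRD9 with the acetyltransferase-binding testis protein NUTM1. The sources used here do not say how the fusion was introduced, nor how old or how many the mice were. With 1 ChIP library for each group, every value below stands without a replicate error and none could be tested.

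Some facts of the series bear on every value. The peak lists are called the control list and the BN1 list after their sample labels. The former held 28343 peaks over 31.0 Mb and the latter 19148 peaks over 19.1 Mb, and the sequencing depth behind them is unknown. Peaks of the control list carry names beginning BRNU and those of the BN1 list names beginning BM, and the extraction text of all 4 samples speaks of cKit-positive BN1 cells, so each direction holds for the sample labels only. Kit, the gene of the sorted marker, had no region in either list, while Ptprc, which encodes CD45, had one in both (6634 and 2958 bp). Among the other progenitor markers, Cd34 had 1601 bp in the control list only, Flt3 had 1341 and 3987 bp, and Gata2 had no region. Of 6 macrophage marker genes, 6 had a region in the control list against 3 in the BN1 list (24215 and 2496 bp summed). Of 6 neutrophil markers 2 and 6 had one (1127 and 33114 bp), of 6 B cell markers 2 and 5 (1964 and 28277 bp), of 6 T and NK cell markers 3 and 3 (2954 and 7857 bp) and of 6 mast cell and basophil markers 1 and 1 (444 and 11798 bp), the latter all at Cma1 in control and at Hdc in BN1, with no region at Cpa3, Fcer1a, Mcpt8 or Ms4a2. In a bulk library a different mix of cells and a different level of acetylation per cell cannot be told apart, and the part of these markers in the results below was not tested.

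Interleukins are secreted signals between leukocytes, and most act through receptors built from a private chain that recognises the cytokine and a chain shared by several cytokines. Common gamma chain receptors and the gp130 family signal through JAK kinases and STAT factors, whereas the IL-1 and IL-17 receptor families signal through adaptor proteins to NF-kB. In marrow they steer lymphoid and myeloid development, and the IL-1 family includes decoy receptors and antagonists that hold the signal in check.

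Promoter sequences are shown for 5 members whose start carried a region in a different pattern, and the values follow below. Each runs 5′ to 3′ from 250 bases before to 50 bases after a RefSeq start (GRCm38.p6, the assembly of mm10). Regions in the BN1 list and none in the control list lay over Il1r2 (chr1:40085843-40086142, plus strand), Il2ra (chr2:11642542-11642841, plus) and a start inside Il12a (chr3:68691174-68691473, plus). Regions of both lists lay over Il6ra (chr3:89913147-89913446, minus) and Il7r (chr15:9529827-9530126, minus). Capitals mark every match, on either strand, to 7 short motifs, where N is any base. They are GAGGAA for ETS factors, AGATAA for GATA factors, TTGCNNAA for C/EBP, TGTGGT for RUNX, TTCNNNGAA for STAT factors, TGANTCA for AP-1 and, for NF-kB, a run of GGGA followed after any 4 bases by CC. Adjoining capitals can be overlapping matches on both strands.
Il1r2: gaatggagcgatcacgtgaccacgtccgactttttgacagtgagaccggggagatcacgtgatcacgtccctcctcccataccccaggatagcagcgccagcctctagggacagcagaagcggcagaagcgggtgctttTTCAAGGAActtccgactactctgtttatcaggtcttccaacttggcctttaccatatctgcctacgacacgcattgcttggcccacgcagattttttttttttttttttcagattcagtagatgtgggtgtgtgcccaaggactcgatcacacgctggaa
Il2ra: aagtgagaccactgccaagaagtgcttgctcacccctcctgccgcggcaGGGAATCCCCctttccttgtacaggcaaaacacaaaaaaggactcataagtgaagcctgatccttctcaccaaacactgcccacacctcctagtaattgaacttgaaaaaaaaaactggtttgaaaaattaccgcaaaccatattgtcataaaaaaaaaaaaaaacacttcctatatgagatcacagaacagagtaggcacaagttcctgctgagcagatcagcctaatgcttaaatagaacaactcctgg
Il12a: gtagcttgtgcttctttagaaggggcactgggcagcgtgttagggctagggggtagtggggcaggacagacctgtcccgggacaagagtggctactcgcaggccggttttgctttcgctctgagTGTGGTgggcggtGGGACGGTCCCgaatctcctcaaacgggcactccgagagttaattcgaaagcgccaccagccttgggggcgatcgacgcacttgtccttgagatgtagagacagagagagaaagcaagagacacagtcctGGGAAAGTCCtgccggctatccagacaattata
Il6ra: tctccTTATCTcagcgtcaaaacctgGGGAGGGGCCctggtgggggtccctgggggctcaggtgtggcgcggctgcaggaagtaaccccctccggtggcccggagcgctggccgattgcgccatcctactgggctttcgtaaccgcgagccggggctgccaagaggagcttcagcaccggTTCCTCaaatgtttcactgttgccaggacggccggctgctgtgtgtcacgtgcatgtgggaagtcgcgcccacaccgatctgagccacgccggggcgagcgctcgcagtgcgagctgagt
Il7r: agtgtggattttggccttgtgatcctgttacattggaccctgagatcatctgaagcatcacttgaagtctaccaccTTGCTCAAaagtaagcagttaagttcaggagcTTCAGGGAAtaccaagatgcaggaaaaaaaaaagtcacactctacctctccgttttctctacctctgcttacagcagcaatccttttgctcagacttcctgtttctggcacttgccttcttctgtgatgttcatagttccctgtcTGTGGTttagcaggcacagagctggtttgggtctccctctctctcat

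The peaks of the BN1 list covered all 300 bases shown for Il1r2 and Il12a and 105 of those for Il2ra. Over the Il6ra stretch the control list covered all 300 bases and the BN1 list covered 59, and over that of Il7r both lists covered all 300. RefSeq starts were found for 65 members, with 80 promoter stretches. These were poor in CpG dinucleotides, with a median of 4 per stretch (0 to 34) against 13 over 21263 stretches of protein-coding genes. Il6ra had 25, Il1r2 and Il12a 16 each, Il2ra 3 and Il7r 1. The motif GAGGAA was found in 28 of the 80 stretches (35%, against 27.4% of all stretches). AGATAA was in 13 (16.25%, against 9.65%), TTGCNNAA in 14 (17.5%, against 10.2%) and TGTGGT in 21 (26.25%, against 14.97%). TTCNNNGAA was in 10 (12.5%, against 7.69%), TGANTCA in 14 (17.5%, against 6.99%) and the NF-kB motif in 19 (23.75%, against 23.0%). The NF-kB share lay near its background and the other shares above theirs, which was not tested. These matches describe letters in a 300-base window and no binding was measured.

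Interleukin genes had a region nearby less often than all genes, a shortfall seen among the ligands and not among the receptors. A region within 10 kb of the gene was present for 42 of the 82 members: 30 in both lists (36.6%, against 50.2% of all protein-coding genes), 4 in the control list only (4.88%, against 8.15%) and 8 in the BN1 list only (9.76%, against 3.81%). The other 40 (48.8%) had none in either list, against 37.8% of all genes. Receptors had a region in 26 of 40 cases and ligands in 13 of 38, against 13606 of all 21887 protein-coding genes. The receptor share lay near that background and the ligand share below it. Of the 8 genes with a region in the BN1 list only, 7 encode receptors or receptor-like proteins (Il1r2, Il1rl2, Il18r1, Il2ra, Il5ra, Il11ra2 and Il22ra2) and 1 a cytokine subunit (Il12a). Of the 4 with a region in the control list only, 3 are ligands or antagonists (Il1rn, Il7 and Il20) and 1 a receptor (Il13ra1). The regions of Il11ra2 and Il22ra2, and that of Il20 on the control side, touched neither the gene nor its start. Some of these genes rested on 1 weak region. The BN1 regions of Il11ra2 (−log10 q 1.82) and Il1rl2 (4.70) fell below a −log10 q minimum of 5, as did the control region of Il7 (2.87). That of Il5ra in the BN1 list (5.93) fell below a minimum of 10. Ligand genes are short, with a median length of 6116.5 bp against 33834.5 bp for the receptors and 17169 bp over all genes, so their windows were shorter too, and the part of gene length in these counts was not tested.

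**Figure D1:**
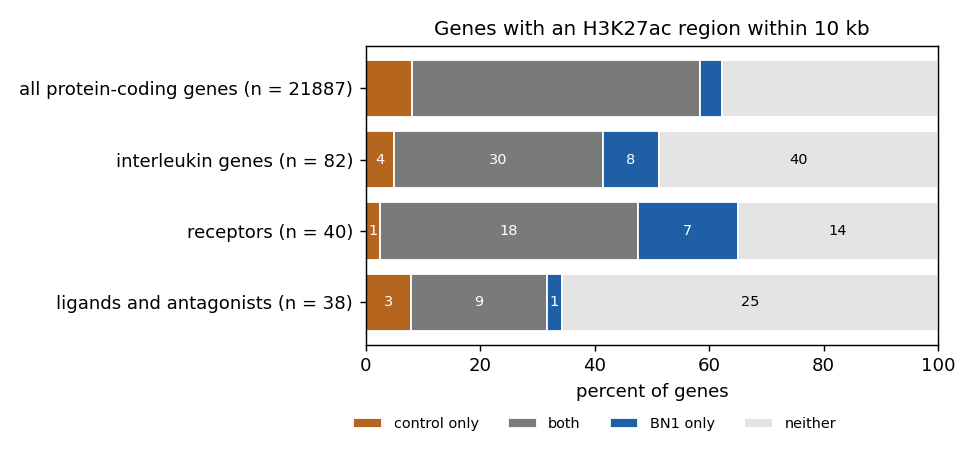
Share of genes (x axis, percent) with an H3K27ac region within 10 kb in the control list only, in both lists, in the BN1 list only or in neither, for all protein-coding genes, the 82 interleukin genes, and the receptors and ligands among them; numbers in the bars are genes. Receptors show the widest BN1-only segment (7 of 40 genes) and ligands the widest segment without a region (25 of 38).

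Acetylated length, the number of bp covered by peaks in the gene plus 10 kb on each side, was at least 2-fold longer in the control list for 16 members (19.5%, against 21.0% of all genes) and at least 2-fold longer in the BN1 list for 10 (12.2%, against 6.55%). A gene without a region in the other list counts as past the fold. The first share lies near the background and the second above it. Expressed per Mb of each list's covered length, the counts were 9 (10.98%, against 14.2%) and 12 (14.6%, against 11.8%), so the second share lay closer to its background on that scale. The median difference over the 42 members with a region, taken as BN1 less control, came to -302.5 bp but to 12.04 bp per Mb. Over all genes with a region it was -457 bp and 10.2 bp per Mb. Members that had no other protein-coding gene in their window, 38 in number, gave 8 at least 2-fold longer in the control list (21.1%, against 17.0% of such genes) and 6 in the BN1 list (15.8%, against 6.06%), a check added after the values were seen.

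**Figure D2:**
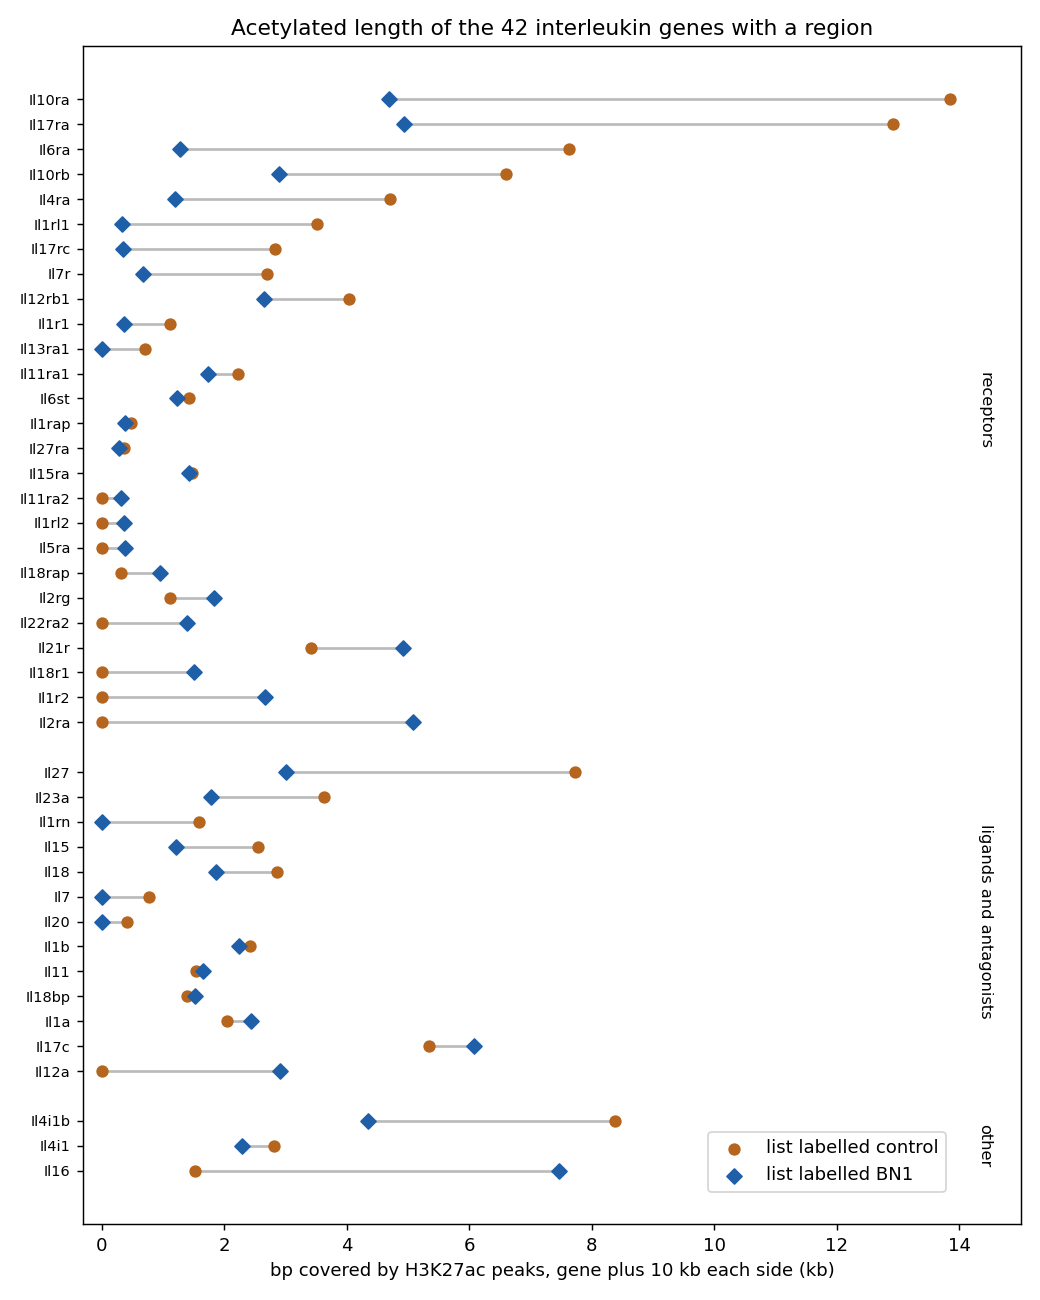
Acetylated length (x axis, kb of peaks in the gene plus 10 kb each side) of the 42 interleukin genes with a region, in the control list (circles) and the BN1 list (diamonds), by role. Il10ra (13853 and 4685 bp) heads the receptors on the control side and Il2ra (none and 5078 bp) those on the BN1 side.

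Among the receptors of the common gamma chain cytokines the private chains differed in opposite directions. Il2ra, the high-affinity alpha chain of the IL-2 receptor, had no region in the control list and 7 regions with 5078 bp in the BN1 list. The longest, of 2180 bp, had its summit at -5865 bp from the RefSeq start with a fold enrichment of 18.5, higher than that of 84.5% of its list's peaks. A pair of shorter regions flanked the start, with summits at -378 and 173 bp, and the remaining regions lay further upstream and inside the gene body. Its neighbour Il15ra, the alpha chain of the IL-15 receptor, had nearly the same length in both lists (1471 and 1427 bp), with overlapping regions at its start. The Il2ra difference was thus not shared by the gene next to it.

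Il4ra, the chain that binds IL-4 and takes part in IL-13 signalling, had 4709 bp in 2 regions in the control list and 1199 bp in 1 region in the BN1 list, a 3.93-fold difference. Both lists marked its start, but the region labelled control was 3978 bp wide and contained the whole of the other. Il21r, the IL-21 receptor next to Il4ra, had 3421 bp in 4 regions and 4923 bp in 5 regions, a 1.44-fold difference in the other direction that turned with 50 kb flanks (BN1 less control, -1460 bp). None of its regions overlapped between the lists. In the control list they lay before the start, the widest with its summit at -1756 bp, while in the BN1 list the nearest had its summit 193 bp after the start and others lay within and beyond the gene. Il7r, the IL-7 receptor chain needed for early lymphoid development, had 2703 bp in 3 regions and 675 bp in 2 regions, and both of the latter lay inside regions of the control list. Il2rg, the common gamma chain itself, had 1115 and 1837 bp, but most of the BN1 length lay at the neighbouring genes Foxo4 and Med12. The region at its own start was 456 bp wide in the control list and 343 bp in the BN1 list, the opposite order to the totals, with 92 bp in common. Inside the gene body, however, they covered 194 and 343 bp, the same order as the totals. Il2rb and Il9r had no region in either list.

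**Figure D3:**
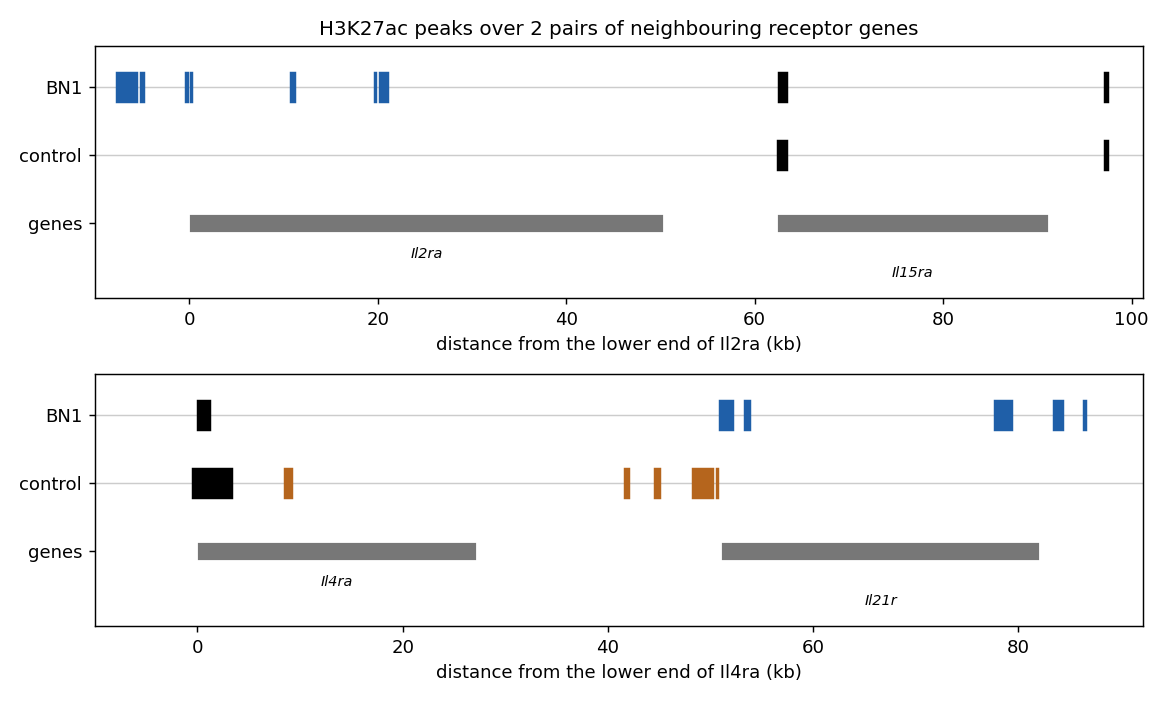
Peaks of each list over Il2ra with Il15ra and over Il4ra with Il21r, against distance from the lower end of the first gene (x axis, kb); grey bars are gene bodies, coloured bars unshared peaks and black bars peaks that overlap a peak of the other list. Over Il2ra the 7 peaks are all in the BN1 list, while Il15ra has 2 shared peaks in each list, and over Il21r no peak is shared.

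The IL-1 receptor cluster on chromosome 1 (mm10 positions 40074692 to 40561707 with flanks) held 7 regions in each list (5725 bp for control and 5476 bp for BN1), yet a single pair overlapped. Il1r2, the decoy receptor that binds IL-1 without signalling, had 3 regions with 2663 bp in the BN1 list and none in the control list. The widest of them, of 1784 bp, covered the RefSeq start with a fold enrichment of 11.98, higher than that of 73.2% of its list. Il18r1, the ligand-binding chain of the IL-18 receptor, likewise had none labelled control and 1503 bp labelled BN1, in a region of 330 bp at a start and one of 1173 bp beyond the gene. Il1rl1, the IL-33 receptor ST2, went the other way with 3520 bp in 4 regions in the control list. Its 330 bp labelled BN1 belonged to the region at the start of Il18r1 and no BN1 region touched its own body or start.

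Il1r1, the signalling IL-1 receptor, had 1 region of 1111 bp inside the gene in the control list, and its 363 bp labelled BN1 were the region at the start of its neighbour Il1rl2, the IL-36 receptor chain. That region was the whole signal of Il1rl2, whose fold enrichment of 4.41 was higher than that of 23.3% of the list. At Il18rap, the accessory chain of the IL-18 receptor, the lists shared 276 bp at the start, within 308 bp labelled control and 947 bp labelled BN1. Il1rap, the accessory chain of the IL-1, IL-33 and IL-36 receptors on chromosome 16, had a weak region at its start in both lists (483 and 379 bp). The neuronal relatives Il1rapl1 and Il1rapl2 had none.

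**Figure D4:**
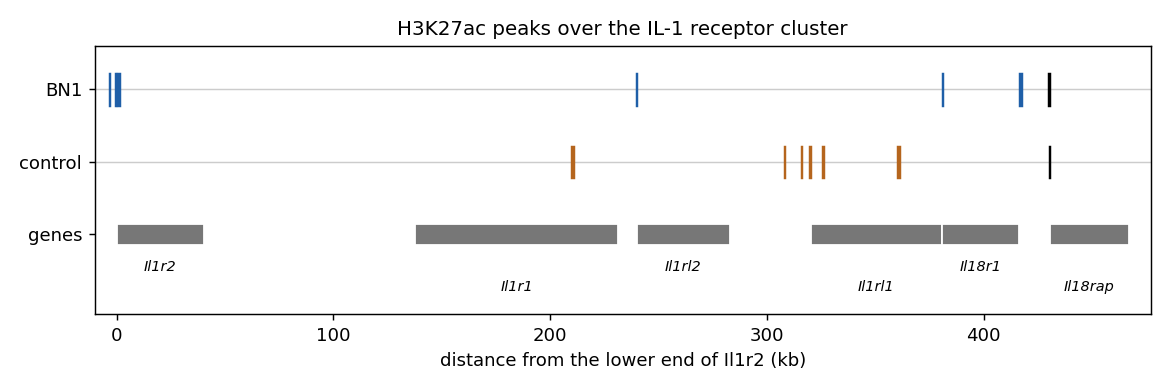
Peaks of each list over the 6 genes of the IL-1 receptor cluster, against distance from the lower end of Il1r2 (x axis, kb); grey bars are gene bodies, coloured bars unshared peaks and black bars the 1 shared peak of each list. The BN1 row is marked at Il1r2, at the starts of Il1rl2 and Il18r1 and beyond Il18r1, the control row in Il1r1 and around Il1rl1, and both rows at the start of Il18rap.

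Of the 6 IL-6 and IL-12 family receptors with a region, 5 were longer in the control list in bp (83.3%, against 70.7% of all genes with a region), and Il11ra2 was not. Per Mb the direction depended on the scale for 4 of them: Il6ra alone was longer in the control list (16.7%, against 41.8%), and Il12rb1, Il11ra1, Il6st, Il27ra and Il11ra2 were longer in the BN1 list. Il6ra, the IL-6 binding chain, had 7637 bp in 5 regions against 1271 bp in 2 regions, a 6.01-fold difference. The start region was 3390 bp wide in the control list and 1032 bp in the BN1 list, and the control list had further regions inside and beyond the gene that had no counterpart. Il6st, the shared chain gp130, had a single region at its start in each list (1428 and 1230 bp), 1185 bp of it in common. Il12rb1, the chain common to the IL-12 and IL-23 receptors, had 4043 and 2643 bp, but no control region and 1 of 5 BN1 regions touched the gene itself. Il11ra1 had 2233 and 1736 bp, largely at the starts of Galt and Ccl27a, and Il27ra had 371 and 286 bp that did not overlap. Il11ra2 had 309 bp in the BN1 list at the start of Ccl27b, and since Il11ra1 and Il11ra2 are near-identical copies the assignment of reads to one of them is uncertain. Il12rb2, Il23r and Il31ra had no region.

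Il10ra and Il17ra had the longest acetylation of the 82 members in the control list, whereas Il16, Il17c and Il2ra exceeded both in the BN1 list. The Il17c regions, however, lay mostly over the neighbouring gene Cyba and touched neither Il17c nor its start. Il10ra, the IL-10 binding chain, had 13853 bp in 8 regions labelled control and 4685 bp in 3 regions labelled BN1. Of these, 4 and 1 touched the gene, and some of the others overlapped the neighbouring gene BC049352. Il10rb, the partner chain, had 6604 and 2890 bp, with a shared region at its lower end that reached into Ifnar2 in the control list. Il17ra, the common chain of the IL-17 receptors, had 12926 bp in 12 regions and 4929 bp in 5 regions, and each of the latter overlapped a control region. The differences were 2.96-fold for Il10ra, 2.29-fold for Il10rb and 2.62-fold for Il17ra in bp, and under 2-fold for each of them per Mb. Il17rc, the partner chain for IL-17A and IL-17F, had 2832 and 352 bp in 1 region at its upper end, where Creld1 starts. Il22ra2, the soluble IL-22 binding protein, had 1392 bp in the BN1 list only, in the flank. Il20ra, Il20rb, Il22ra1, Il17rb, Il17rd and Il17re had none.

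The chains for IL-5 and IL-13 showed single narrow regions. Il13ra1 had 699 bp at its start in the control list and none in the other. Il5ra, the eosinophil IL-5 receptor chain, had 380 bp at its start in the BN1 list and none in the control list. The decoy Il13ra2 had no region.

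Among the ligands, Il12a stood on the BN1 side. Il12a, the p35 subunit of IL-12, had 1 region of 2903 bp over its start in the BN1 list and none in the control list. Its fold enrichment was 12.1, higher than that of 73.6% of its list. The other subunit gene, Il12b, had no region in either list, and the nearest lay 22912 bp away in the control list and 55094 bp away in the BN1 list. No other gene of the ligand class was at least 2-fold longer in the BN1 list. Il16, a cytokine gene kept outside that class, was (1519 and 7458 bp).

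In the IL-1 ligand family, Il1b and Il1a had similar lengths in both lists and the receptor antagonist Il1rn did not. Il1b, the main secreted IL-1, had 2427 bp in 3 regions and 2248 bp in 5 regions, mostly before the start. Il1a had 2051 and 2442 bp, largely over the neighbouring gene Ckap2l, and a region at its own start (314 bp) in the control list only. Il1rn had 4 regions inside the gene with 1584 bp in the control list and none in the BN1 list. Il18 had 2867 and 1872 bp with a shared region at its start, an order that turned under 5 of the 7 alternative settings. Il18bp, which binds and blocks IL-18, had 1396 and 1516 bp. Il33 and the IL-36 group genes Il1f5, Il1f6, Il1f8, Il1f9 and Il1f10 had no region within 10 kb in either list.

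Il15, a cytokine of NK and memory T cells, had 2554 and 1219 bp at 1 end of the gene in both lists, and Il7, the stromal lymphoid factor, had 771 bp in the control list only. The Il7 region had a fold enrichment of 3.47, higher than that of 7.19% of its list. It was lost at a −log10 q minimum of 5. For several ligands the regions belonged to other genes by position. Those of Il17c (5342 and 6083 bp) lay mostly over Cyba, those of Il11 (1532 and 1648 bp) at the starts of Tmem238 and Rpl28, and most of those of Il23a (3621 and 1791 bp) at the start of Pan2. Il27 had 7734 bp in the control list, mostly over Cln3 and Apobr and none touching the gene, and 3006 bp in the BN1 list, where 1 of 3 regions touched it. Without flanks its difference turned to 647 bp in favour of BN1. Il20 had a flank region of 407 bp in the control list.

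Of the 38 ligands, 25 (65.8%) had no region in either list, against 37.8% of all genes. Il2, Il3, Il4, Il5, Il9, Il13, Il17a, Il17f, Il21, Il22, Il25 and Il31 had none within 10 kb in either list, nor had Il6 and Il10. The nearest region to Il10 was 47709 bp away in the control list and 58874 bp in the BN1 list, and both lay in Mapkapk2. That of Il6 was 52910 and 52672 bp away, in Tyms. Of the 40 members without a region within 10 kb, 28 had one of either list within 50 kb, and 4 had none within 100 kb. At a peak list's threshold the absence of a region says that none was called at an unknown depth, not that the mark was absent.

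Of the 4 members outside the ligand and receptor classes, Il16 showed the largest excess of any member in the BN1 list. Il16, which encodes a precursor cleaved to a T cell chemoattractant, had 1519 bp in 1 region labelled control and 7458 bp in 4 regions labelled BN1, a 4.91-fold difference. The strongest BN1 region, 3094 bp wide with a fold enrichment of 18.9, had its summit 393 bp after a RefSeq start inside the gene (position 83655495 of chromosome 7, minus strand), where the control list had none. The other BN1 region of similar width contained the whole control region. Il4i1b had 8381 and 4354 bp and Il4i1, an amino acid oxidase induced by IL-4, had 2817 and 2285 bp. These genes overlap and share regions at the start of Akt1s1, and the region at the start of Il4i1b also covered the starts of Atf5 and Nup62 in both lists. Il34, a ligand of the macrophage receptor CSF1R, had none.

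Counts at the RefSeq starts drew on the same peaks as the window counts, so they are no separate evidence. Of 65 members with a listed start, 4 (6.15%, against 6.21% of all genes with a listed start) had a region within 1000 bp in the control list only: Il1a, Il1rn, Il11ra1 and Il13ra1. In the BN1 list only there were 7 (10.8%, against 2.92%): Il1r2, Il1rl2, Il2ra, Il5ra, Il12a, Il16 and Il18r1. Both lists marked 13 (20%, against 40.6%), and 41 had no start region (63.1%, against 50.2%). Of the 13, Il1b and Il21r had start regions that did not overlap between the lists. Il17ra, Il10ra and Il10rb have no start in the table and are not part of these counts. The control share lies near its background, and the BN1 share lies above it.

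Peak by peak, 100 peaks of the control list and 81 of the BN1 list reached into the windows. Of these, 45% (exact Clopper-Pearson 95% interval 35.03 to 55.3) and 58.0% (46.5 to 68.9) overlapped a peak of the other list by at least 1 bp, close to the 41.2% and 62.6% over all peaks. The intervals cover counting error only. In the windows the shared peaks had a median fold enrichment of 8.85 in the control list against 4.64 for unshared peaks, and of 7.76 against 5.44 in the BN1 list. Over all peaks of each list these medians were 10.8 against 5.12 and 9.48 against 4.81, so the order was not particular to the interleukins. Among the BN1 peaks that touched an interleukin gene body the medians were close (5.14 shared and 5.16 unshared). By place the counts are given as a description, since they were not set against all peaks. Within 1000 bp of a member's start, 15 of 23 control peaks and 12 of 24 BN1 peaks were shared. Elsewhere in a member's body 7 of 30 and 10 of 20 were, and in flanks without a gene 5 of 21 and 6 of 17. At the start or in the body of another gene 18 of 26 control peaks and 19 of 20 BN1 peaks were shared. Of the 42 members with a region, 6 (Il4i1, Il11, Il11ra2, Il17c, Il20 and Il22ra2) had no region of either list that touched the gene or lay within 1000 bp of its start.

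**Figure D5:**
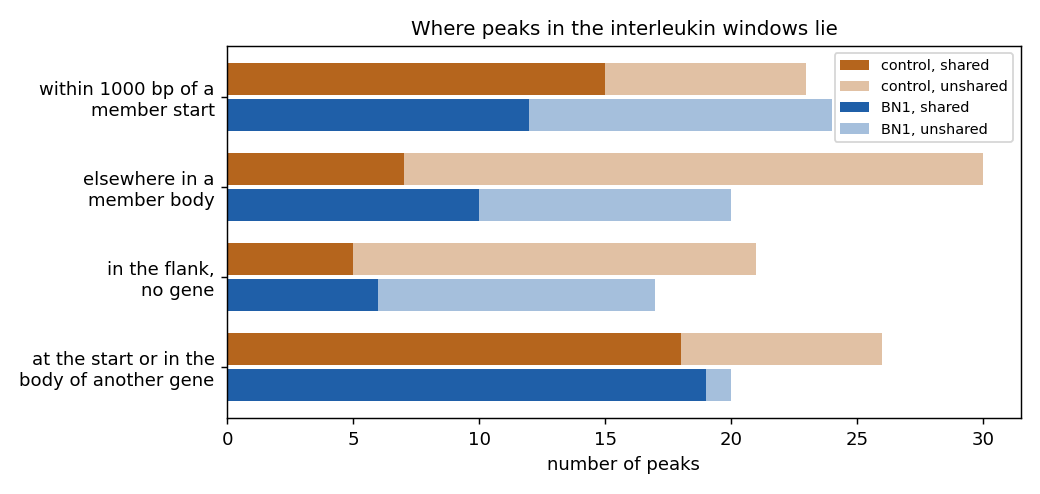
Number of peaks (x axis) in the windows of the interleukin genes by place and list, with shared peaks in full colour and unshared peaks pale. At the start or in the body of another gene 19 of 20 BN1 peaks are shared, while elsewhere in member bodies 7 of 30 control peaks are.

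Other genes of the interleukin pathways that lie outside the symbol rule were taken as a list of 34, mostly kinases, STAT factors, adaptors and inhibitors, with the cytokine genes Tslp and Ebi3 and the receptor genes Crlf2, Csf2rb, Csf2rb2 and Sigirr. Of these, 2 (Sigirr and Tslp) had no region (5.88%, against 37.8% of all genes), and 29 had one in both lists (85.3%, against 50.2%). At least 2-fold longer in the control list were 12 (35.3%, against 21.0% of all genes), and in the BN1 list 3 (8.82%, against 6.55%). Per Mb the counts were 6 and 6 (17.6% each, against 14.2% and 11.8%). The median difference over the 32, BN1 minus control, was -1123.5 bp, or -8.996 bp per Mb.

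By length difference on the control side, the IL-1 receptor kinase gene Irak2 had 28268 and 14927 bp, the feedback inhibitor Socs3 had 10271 and 830 bp, and the phosphatase gene Ptpn6 had 16358 and 8923 bp. Csf2rb2, the mouse IL-3 specific beta chain, had 6353 and 253 bp, and Jak3, the kinase bound to the common gamma chain, had 5323 and 374 bp. Csf2rb2 has a near-identical neighbour in Csf2rb, so the split of reads between them is uncertain. On the BN1 side, the TSLP receptor gene Crlf2 had 3721 and 7128 bp, the kinase gene Jak1 had 1572 and 3421 bp, and Stat4, the STAT of the IL-12 receptor, had 675 and 2207 bp. The kinase gene Map3k7 had 1798 and 2471 bp, and Cish, a feedback inhibitor induced by STAT5, had 2370 and 2988 bp. Thus Jak3 was longer in the control list and Jak1, which works beside it at the common gamma chain receptors, in the BN1 list.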

How the data were processed

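H3K27ac fanChIP-seq peak lists of 1 control and 1 BN1 library were used, and the 2 input libraries were not analysed here. The submitters' processing notes name MACS3 3.0.1, Bowtie2 2.5.4, deepTools 3.5.1, Picard 3.2.0 and the builds mm10 and GRCm38, with no role or order. Input use, pooling and threshold: not given in the sources used here. A row of a deposited narrowPeak file holds the authors' linear fold enrichment (a ratio), the −log10 of its p-value and q-value, a summit offset and a deposited score, which was 10 times the −log10 q to within 1 unit in 100% of peaks and was not used. Fold enrichment served only for describing peaks inside 1 list. Lists hold no read counts, so weak regions missed at low depth cannot be told from absent ones.

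Groups follow the sample titles. Genes, symbols and starts came from RefSeq tables of GRCm38.p6. Peaks within 10 kb of a gene, peaks within 1000 bp of a RefSeq start and overlaps of at least 1 bp were counted with scipy 1.17.1, pandas 2.3.3 and numpy 2.4.6 under Python 3.11.15. The planned gene end measure used starts, for members with an entry. The code was tested on simulated peaks. Members and lists were chosen with earlier results of these data known. Members named with values are the 12 per direction with the largest difference in bp, those with a start region (or, without a listed start, an end region) in 1 list only and 16 set by name; other members were named to account for all of them, and signalling genes were the 5 per direction by difference. Alternatives were −log10 q minimums of 5 and 10, lists of equal length, the top 10000 peaks, other flanks (0 and 50 kb), other start windows (500 and 2500 bp), the per Mb scale and other overlap rules.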

Additional observations from a re-analysis of the deposited data

How the results depend on the processing

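With 1 library per group no replicate could be left out. No paired analysis was possible because each group has a single library and no result comes from a test. Counts not listed here stayed within 1.5 times. At a −log10 q of at least 5, 7 members had a start region in both lists, and at 10 there were 4, with 8 members having a region in the control list only and 17 in both. With lists of equal length 16 of the 82 members were at least 2-fold longer in the BN1 list, against 8.62% of all genes. The median difference turned to 286 bp (-307 bp over all genes). Start regions then numbered 2 in control only, 12 in BN1 only and 8 in both, and 57.6% of control peaks were shared. With the top 10000 peaks 15 members had a region in both, 4 a start region in both, the median was -75 bp, and 45.9% of BN1 peaks were shared. Without flanks 8 members had a region in control only and 17 in both. With 50 kb flanks the classes held 13 (control only), 3 (BN1 only), 54 (both) and 12 (neither). At least 2-fold longer in control were 30 of the 82 members, against 25.3% of all genes. The median with these flanks was -674.5 bp (-938 bp over all genes). Il1rl2 (-3889 bp), Il5ra (-1451 bp), Il21r (-1460 bp), Il1a (-5256 bp) and Il6st (290 bp) turned with them. Il27 (647 bp), Il1a (-314 bp), Il1b (242 bp) and Il6st (45 bp) turned without flanks. Per Mb, 9 members were at least 2-fold longer in control and the median was 12.04 bp per Mb. With overlap over 50% of each peak 17% and 21.0% were shared. Chosen after seeing the data, regions at either gene end were in both lists for 21 of all members, and members with no other gene in the window gave 8 and 6 with a median of -198 bp. Of 32 named members with a region, 15 kept their sign under all 7 settings, 11 turned under at least 1, and 6 fell to 0 without turning. Among the 11, Il18 and Il1b turned under 5 settings each, Il11ra1 under 4, and Il17c, Il27ra and Il6st under 3 each. The causes were not tested.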

Other observations

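Some receptor chains that serve several cytokines were picked after the values were seen and are given with no test; the group is not complete. Il2rg, Il6st, Il1rap, Il4ra, Il10rb, Il17ra and Il12rb1 each had a region in both lists, Il13ra1 had one in the control list, and Il2rb and Il20rb had none. Of the 7 with a region in both, Il4ra, Il10rb and Il17ra were at least 2-fold longer in bp in the control list (21.0% of all genes were). Per Mb only Il4ra was (14.2% of all genes), and Il10rb and Il17ra were under 2-fold. On that scale Il2rg was at least 2-fold longer in the BN1 list (11.8% of all genes). Il6st, Il1rap and Il12rb1 were longer there by less than 2-fold.

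The ligand clusters differed in how many regions they held. The cluster of Il10, Il19, Il20 and Il24 on chromosome 1, 162897 bp with flanks, held 1 region of 407 bp labelled control and none labelled BN1. The IL-36 and Il1rn cluster on chromosome 2 held 7 regions (3102 bp) labelled control and 2 (954 bp) labelled BN1, with no overlap, and 4 of the 7 lay inside Il1rn. The Il1a and Il1b stretch held 6 regions (6737 bp) and 7 regions (4690 bp), 3 of them shared in each list. The stretch from Il4 to Il3 on chromosome 11 held 27 and 10 regions, none of them within 10 kb of Il3, Il4, Il5 or Il13.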
